A study of Mus musculus with 60 samples.

Results

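Of the 60 carcinomas measured, 14 carry the histology label spindle, and these were set against each other by a second label, tumor_class: 9 were class 1 and 5 were class 2. The tumors were grouped by these labels alone, without use of expression values. The sources used here do not say how tumor_class was assigned. If expression entered that assignment, the differences between the classes are not independent evidence of a division among spindle tumors.

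All tumors arose on dorsal back skin painted with DMBA, a carcinogen, and TPA, a tumor promoter. The hosts were FVBBX mice, a backcross in which hybrids of SPRET/Ei and FVB/N were mated to FVB/N again, so each mouse carried its own mixture of alleles from Mus spretus and the inbred strain FVB/N. Each tumor was hybridized to its own expression array, and the remaining samples were 38 squamous cell carcinomas (SCC; 5 of class 1 and 33 of class 2) and 8 tumors with no histology label. Ages of the mice are not among the labels used here. The labels give each mouse a backcross origin, F1BSF1, F1BSF2, F1BSF3 or F1BSF4, and an agouti or white coat. Class 1 spindle tumors came from all of these origins, and class 2 ones from F1BSF1, F1BSF3 and F1BSF4. Origin entered no fit. Agouti mice gave 4 of 9 class 1 and 2 of 5 class 2 spindle tumors. The 14 spindle tumors came from 13 mice, since 1 mouse gave both class 1 tumor 4 and class 2 tumor 5 (tumors are numbered within each class only to name them). The other spindle tumors came from separate mice and are treated as separate samples. The 5 class 1 SCC came from 4 mice: tumors 1 and 2 share a mouse and a tumor number in their titles, so they may be parts of 1 tumor. Another mouse gave both SCC class 1 tumor 4 and SCC class 2 tumor 19, and a further mouse gave SCC class 2 tumors 5 and 6.

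Spindle carcinoma is the form of skin carcinoma in which keratinocytes have taken on an elongated, fibroblast-like shape. Epithelial cells are held together by E-cadherin junctions, tight junctions and desmosomes, and are anchored to the basement membrane by hemidesmosomes. In epithelial-mesenchymal transition (EMT) these structures are taken down, repressors of the SNAI and ZEB families are active, and intermediate filaments of vimentin come to accompany or replace those of keratin.

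Before the classes were compared, the arrays were checked against the other labels. In 3 of the 14 spindle arrays the levels of Xist and of Y-linked genes went against the sex label. These were both tumors of the shared mouse and class 1 tumor 8: class 1 tumors 4 and 8 showed Xist (10.56 and 8.57 on the log2 scale) together with Y-linked RNA, and class 2 tumor 5 showed neither (Xist 5.49). Among the 52 tumors with a histology label, 10 arrays were of this kind. All spindle tumors were graded poorly differentiated except class 2 tumor 4, which was graded moderate. The p53 mutant label was carried by 2 of 9 class 1 and 3 of 5 class 2 tumors (two-sided Fisher's exact p = 0.266). Females made up 5 of 9 and 2 of 5 (p = 1), and node-positive animals 2 of the 5 class 1 mice with a status and 3 of 5 in class 2 (p = 1), both by two-sided Fisher's exact test. Papillomas at 20 weeks averaged 6.78 ± 8.01 (SD, n = 9) in class 1 mice and 5.4 ± 5.37 (n = 5) in class 2 mice (two-sided exact permutation p = 0.804). The week of the first papilloma averaged 14.0 ± 5.39 (SD, n = 9) and 10.4 ± 0.894 (n = 5; two-sided exact permutation p = 0.196). The shared mouse was counted once in each class in all of these label tests, so the classes are not fully independent there. RNA quality did move with class. For the Gapdh control probe sets, the signal at the 3′ end less that at the 5′ end on the log2 scale, which grows as RNA degrades, ran from -0.166 to 0.233 in class 1 and was 0.45, 0.34, 0.04, 0.14 and 0.54 in class 2 tumors 1 to 5 (two-sided exact permutation p = 0.014). A fit with this difference as a covariate was added after the data were seen. The 3′ minus 5′ difference of Actb was 0.694 ± 0.138 (SD, n = 9) and 1.12 ± 0.533 (n = 5; two-sided exact permutation p = 0.0599).

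A large part of the transcriptome differed by class. Of 12120 genes above their array's median on at least 5 of the 14 arrays, 2536 (20.9%) passed the limma test at an adjusted p under 0.05. Of these, 1257 (10.4%) were higher in class 1 and 1279 (10.6%) were lower. The counts were near equal, but the sizes were not: 147 genes were lower in class 1 by over 8-fold and 4 were higher by that much, and at over 4-fold the counts were 316 and 48. The counts of each gene list below are to be read beside the shares of 10.4% higher and 10.6% lower. The lists were chosen with earlier results of these data known, so an excess over these shares is not independent support. For every one of the 14 tumors, the spindle tumor of highest correlation over the 12120 genes tested belonged to the same class (14 of 14). Between pairs r ranged from 0.781 to 0.953. In 323 genes (2.67%) all 9 class 1 values lay above all 5 class 2 values, and in 595 (4.91%) all lay below. These arrays measured whole tumor pieces, so fewer cells of a type and less RNA per cell cannot be told apart. With the Gapdh covariate 1125 genes passed (433 higher, 692 lower), and without the 3 arrays that went against their sex label 1569 did (721 higher, 848 lower).

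Genes of cell-cell adhesion were lower in class 1. Of 13 measured genes of adherens junctions and the epithelial surface, 12 were lower in class 1 and none higher, with a median difference of -3.05 on the log2 scale against 0.04 for all genes tested. Epcam, an adhesion protein of epithelial cells, ran from 5.07 through a median of 6.38 to 9.45 in class 1 and stood at 11.20, 10.74, 11.49, 11.91 and 12.00 in class 2 tumors 1 to 5. The groups did not overlap, and class 1 was lower by 4.93 log2 units (SE 0.54, adjusted p = 1.92e-05), a 30.5-fold difference. Cdh1, which encodes E-cadherin, ran from 5.01 through 6.83 to 7.94 in class 1 and was 10.18, 9.24, 9.92, 10.02 and 10.40 in class 2. Again no class 1 tumor reached any class 2 tumor, and the difference was -3.21 (SE 0.37, adjusted p = 2.99e-05), or 9.24-fold. The membrane serine protease St14 (-3.69) and the protease inhibitor Spint2 (-3.84), partners at the keratinocyte surface, were both lower, whereas the adhesion molecule Nectin1 did not pass (-0.24, adjusted p = 0.44).

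Tight junction genes separated the same way: 12 of the 13 tested were lower in class 1 and none was higher (median -2.40). Cldn4, a claudin that seals the space between cells, had a class 1 range of 4.52 to 7.55 with a median of 4.77, against 9.77, 10.20, 10.49, 10.92 and 10.54 in class 2. Its class 1 mean was lower by 5.22 (SE 0.41, adjusted p = 1.46e-06), 37.1-fold. Cldn7, another claudin, had a class 1 range of 3.41 to 4.70 with a median of 3.71 and was below its array's median on 8 of 9 class 1 arrays, so its fold is limited by the lower end of the array's range. In class 2 it stood at 7.00, 6.64, 8.11, 7.51 and 10.24, and the difference was -4.05 (SE 0.46, adjusted p = 2.52e-05). Lsr and Marveld2, proteins of the corners where 3 cells meet, were lower by 2.89 and 2.40. The scaffold gene Tjp1 was lower by only 0.74 (adjusted p = 0.019), and Cldn12 did not pass (-0.16, adjusted p = 0.61). Because a gene could enter the test through the 5 class 2 arrays alone, all measured members were also tested with no filter, where 15 of 16 tight junction genes were lower.

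Promoters of Epcam, Cldn7, Cdh1, Esrp1 and Grhl2, genes fixed by name, were looked up in the RefSeq promoter table (build GRCm38.p6). It holds Epcam and Cldn7 but has no entry for Cdh1, Esrp1 and Grhl2. Cldn4 was added after its values were seen, so the promoters of 3 genes are shown. Each window runs from 250 bases before to 50 after the start of transcription, written 5′ to 3′ on the strand of the gene. Capitals mark the letters CAGGTG or, on the opposite strand, CACCTG, the E-box that SNAI and ZEB repressors are known to bind. The window of Epcam is chr17:87635729-87636028 on the plus strand, that of Cldn7 is chr11:69965171-69965470 on the plus strand, and that of Cldn4 is chr5:134946885-134947184 on the minus strand.
Epcam: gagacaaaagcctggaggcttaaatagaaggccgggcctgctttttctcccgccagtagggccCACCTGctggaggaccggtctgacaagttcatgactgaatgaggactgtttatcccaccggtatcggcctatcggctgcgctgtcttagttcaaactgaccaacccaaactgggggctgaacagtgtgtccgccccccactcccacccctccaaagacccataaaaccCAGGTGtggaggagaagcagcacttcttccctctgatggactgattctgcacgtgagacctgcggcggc
Cldn7: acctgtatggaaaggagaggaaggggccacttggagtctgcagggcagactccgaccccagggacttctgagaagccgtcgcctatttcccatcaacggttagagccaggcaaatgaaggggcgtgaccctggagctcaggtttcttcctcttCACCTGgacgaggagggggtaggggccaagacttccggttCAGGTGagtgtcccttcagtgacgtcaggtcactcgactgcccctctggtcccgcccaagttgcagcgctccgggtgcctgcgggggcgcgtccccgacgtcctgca
Cldn4: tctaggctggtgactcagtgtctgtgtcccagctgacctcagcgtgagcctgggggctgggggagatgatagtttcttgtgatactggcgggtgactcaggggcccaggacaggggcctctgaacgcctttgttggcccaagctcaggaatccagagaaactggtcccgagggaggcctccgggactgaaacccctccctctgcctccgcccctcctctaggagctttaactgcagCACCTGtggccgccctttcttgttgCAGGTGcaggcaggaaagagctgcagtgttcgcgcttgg
Each of these windows holds 2 copies, 1 in each orientation. A different Cldn7 start in the table, at chr11:69964529-69964828, has none. Over the 32851 promoter windows counted, 20.2% hold the letters at least once. Windows on 1 chromosome of the table were left out of this share and of those that follow. Among genes tested here that have a window, 21.1% of 9744 hold them in any window, compared with 33.6% of the 980 genes called lower in class 1 and 17.5% of the 979 called higher. A gene with several windows had more chances to hold the letters, and these shares were not adjusted for that. A match describes these letters only, and no binding was measured.

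Desmosomes and hemidesmosomes, which tie the keratin network to neighboring cells and to the basement membrane, were also lower in class 1. In the desmosome list 10 of 11 genes were lower (median -3.02), led by the desmosomal cadherins Dsg2 (-4.06) and Dsc2 (adjusted p = 6.43e-05), whose means were 4.37 ± 1.40 (SD, n = 9) in class 1 and 9.37 ± 0.86 (n = 5) in class 2, and by the plaque protein Dsp (-4.29). Pkp2, a plakophilin, did not follow (-0.04, adjusted p = 0.97). Of 9 hemidesmosome and laminin-332 genes, 6 were lower (median -2.77), among them Col17a1 (-5.34, SE 0.64, adjusted p = 4.17e-05), the transmembrane collagen of hemidesmosomes, and Lamb3 (-4.70), a chain of laminin-332. Plec (0.23, adjusted p = 0.33) and Cd151 (0.07, adjusted p = 0.91), which are also used outside epithelia, did not pass. Lama3, another chain of laminin-332, did not pass either (-3.58, SE 1.23, adjusted p = 0.051). Dst, which encodes the hemidesmosomal BPAG1 among other isoforms, was lower by 4.59 on the probe set used, but other probe sets of the gene gave 1.25 and 1.01 in the opposite direction.

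**Figure D1:**
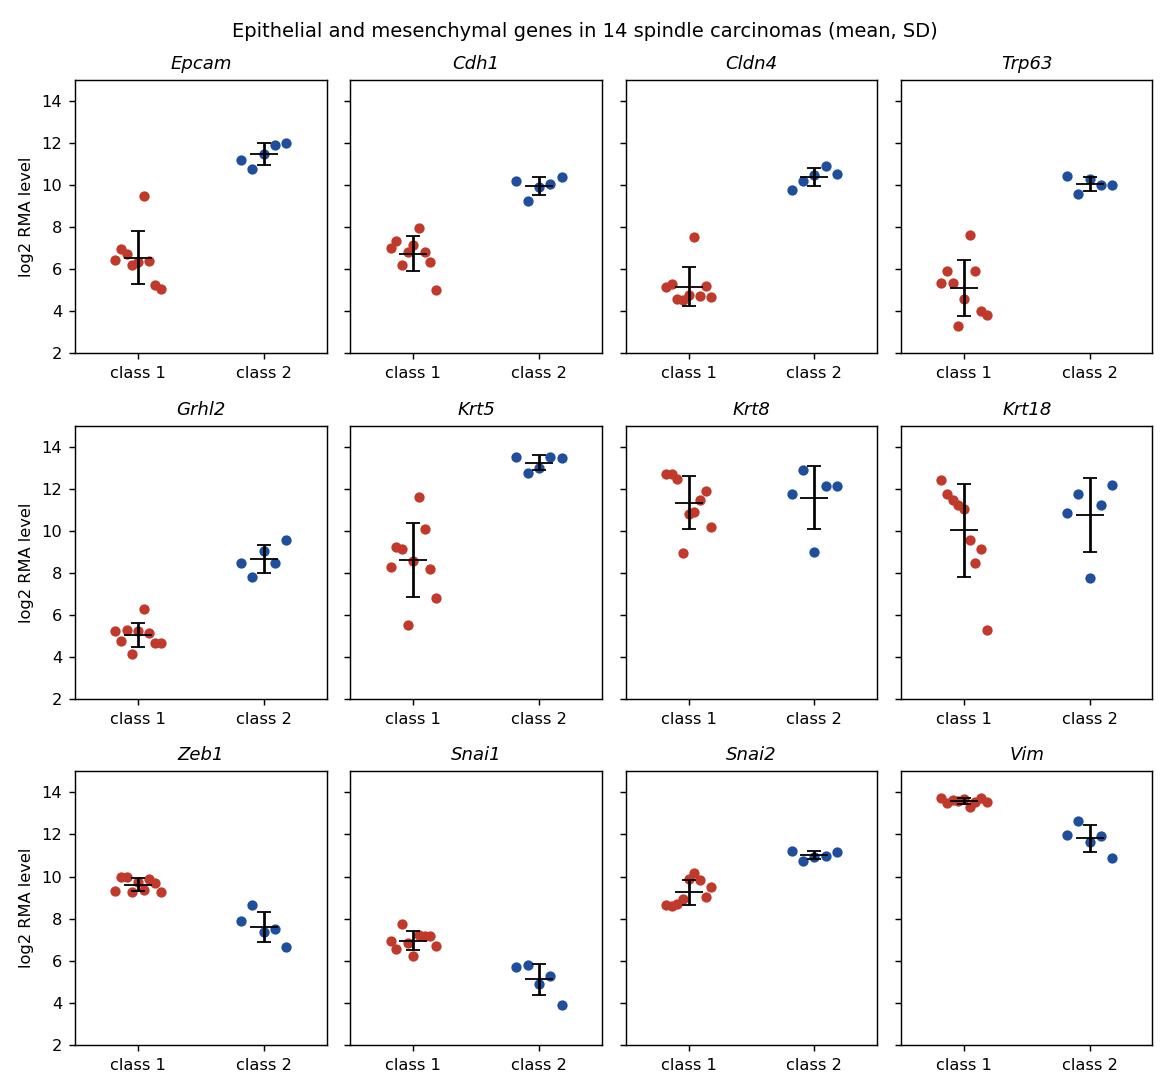
Log2 RMA expression of epithelial and mesenchymal genes in each spindle tumor, class 1 (9 tumors) beside class 2 (5 tumors), with 1 point per tumor and bars for the mean and SD. Epcam, Cdh1 and the other epithelial genes that passed do not overlap between the classes, and Zeb1 and Vim are separated in the opposite direction.

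The keratins did not behave as a single group. Krt5 and Krt14, the keratin pair of basal keratinocytes, were lower in class 1 by 4.64 (SE 0.73, adjusted p = 0.000414) and 4.20 (SE 0.94, adjusted p = 0.00549). Krt14 ran from 5.06 through 10.13 to 12.77 in class 1, while class 2 tumors lay between 13.35 and 14.06. The class 1 tumors thus ranged from near-background to strong basal keratin signal, and none reached class 2. All 4 stress keratins, which wounded and hyperproliferating epidermis makes, were lower (median -4.36): Krt17 by 4.80, Krt16 by 4.63, Krt6a by 4.09 and Krt6b by 4.02. The last pair is near identical in sequence and its probe sets may share signal, and with the Gapdh covariate 2 of the 4 passed.

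Krt8 and Krt18, the pair of simple epithelia that normal interfollicular epidermis lacks, showed no class difference past the test. Krt8 ran from 8.96 through 11.47 to 12.70 in class 1 and was 11.74, 12.87, 9.00, 12.13 and 12.12 in class 2. The groups overlapped throughout, with a difference of -0.23 (SE 0.68, adjusted p = 0.849). Krt18 likewise overlapped, from 5.29 through 11.02 to 12.40 against 10.83, 11.74, 7.76, 11.22 and 12.17 (difference -0.71, SE 1.04, adjusted p = 0.681). Krt7, another simple keratin, was lower in class 1 (-3.77, SE 0.72, adjusted p = 0.00187), and did not pass with the Gapdh covariate. Both classes therefore held abundant Krt8 RNA, and single tumors in each (class 1 tumor 4, class 2 tumor 3) held less.

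Regulators of epithelial identity were lower along with the structures they serve. Trp63, which encodes the transcription factor p63 of basal keratinocytes, ran from 3.28 through 5.35 to 7.62 in class 1 and was 10.42, 9.58, 10.30, 10.00 and 9.99 in class 2. The gap amounted to -4.97 (SE 0.56, adjusted p = 2.36e-05), or 31.3-fold. Of 17 epithelial transcription and splicing regulators tested, 16 were lower and none higher (median -2.89), and with no filter 20 of 21 were lower. Esrp1, a splicing factor that sets epithelial isoforms, was lower by 4.48 (SE 0.56, adjusted p = 6.4e-05), and its paralog Esrp2 by 3.42. Grhl2, a grainyhead factor that activates junction genes, ran from 4.14 through 5.15 to 6.27 against 8.45, 7.81, 9.04, 8.46 and 9.56 (difference -3.62, SE 0.32, adjusted p = 3.61e-06). Ehf, an ETS factor of epithelia, was lower by 5.44. Ovol2, a repressor of Zeb1, fell under the filter, and with no filter it was lower by 1.17 (SE 0.199, adjusted p = 0.00116 over 18194 genes), with 9 of 9 class 1 arrays under the array median. Tfap2a did not pass (-0.49, adjusted p = 0.25).

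Squamous differentiation genes were lower for the most part, though not as a block. Of 24 suprabasal and cornified envelope genes, 16 were lower in class 1 and none higher (median -3.26). The largest difference of any gene tested was in Sprr2f, a small proline-rich precursor of the cornified envelope, at -6.06 (SE 0.70, adjusted p = 2.85e-05), followed by Ltf, the iron-binding lactoferrin, at -6.03. Sprr2 genes are close paralogs whose probe sets may share signal. The early differentiation keratins Krt1 (-0.81, adjusted p = 0.7) and Krt10 (-0.34, adjusted p = 0.86), and the late proteins Lor (-0.79) and Flg (-1.58), did not pass, whereas Ivl (-4.42) and the crosslinking enzyme Tgm1 (-3.25) did. Also among the 12 largest lower genes were Gsta4, a glutathione transferase (-5.47), Aldh1a3, an enzyme of retinoic acid synthesis (-5.18), and Ppbp, a neutrophil-attracting chemokine (-5.28).

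Class 1 tumors were unequal among themselves in what epithelial RNA they held. Class 1 tumor 6 had the highest mean of the class 1 tumors in 8 of the 9 epithelial lists, the simple keratins aside: it stood at 7.10 for adherens junction genes (5.59 to 6.30 in the other 8) and 8.08 for desmosome genes. Both values still lay below the lowest class 2 tumor (8.37 and 9.10). Class 1 tumors 4 and 9 lay lowest for desmosome genes (5.34 and 5.37) and for stress keratins (3.74 and 5.69, against 7.85 to 10.71 in the other 7). This did not hold for every epithelial list, since tumor 4 stood at 8.15 for hemidesmosome genes, within a class 1 range of 6.81 to 9.53. The class 2 tumors ranged over 8.37 to 9.25 for adherens junction genes and 9.10 to 10.0 for desmosome genes. In none of the 9 epithelial lists did leaving out any 1 of the 14 tumors change the count of lower genes by over 1.5 times.

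**Figure D2:**
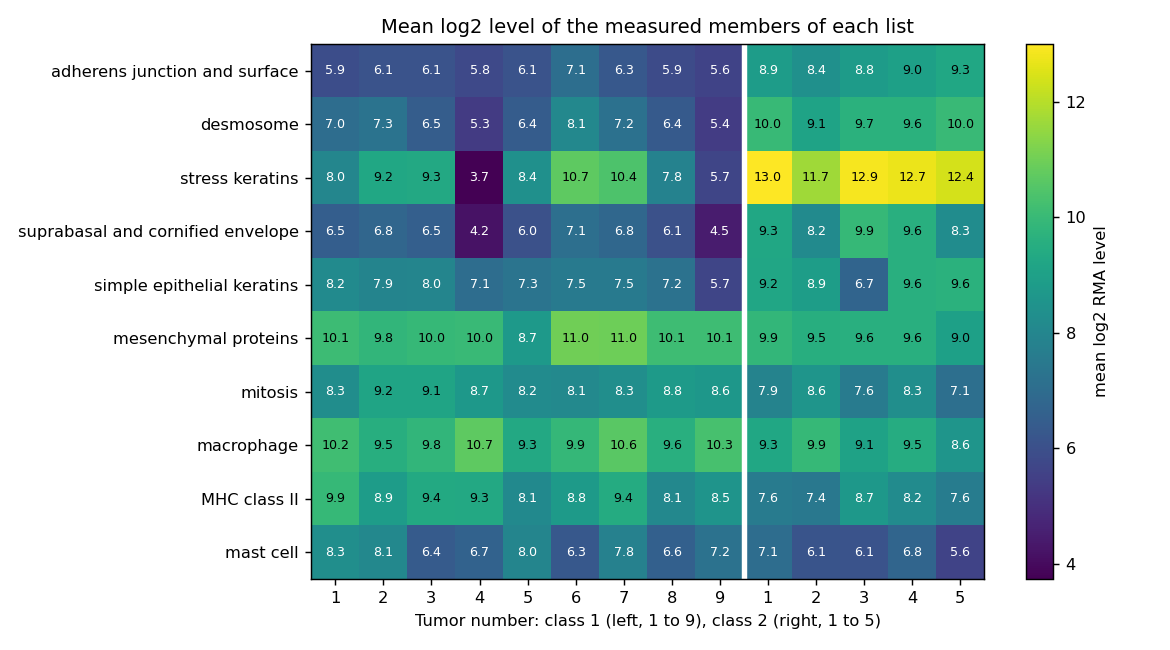
Heat map of the mean log2 RMA level of the measured members of 10 gene lists (lines) in each of the 14 spindle tumors (columns, class 1 left and class 2 right), with the color scale and the printed number both giving the mean. Adherens junction means are 5.59 to 7.10 in class 1 and 8.37 to 9.25 in class 2, and class 1 tumor 6 lies nearest to class 2 there.

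On the mesenchymal side fewer genes differed, and by less. Of 13 EMT transcription factors, 5 were higher in class 1 and 3 lower (median 0.77). Zeb1, a repressor of epithelial genes, ran from 9.25 through 9.69 to 9.99 in class 1 and was 7.90, 8.63, 7.36, 7.49 and 6.65 in class 2. Class 1 lay above class 2 throughout, by 2.00 (SE 0.26, adjusted p = 7.64e-05), 4.01-fold. Snai1 was higher by 1.84 (SE 0.30, adjusted p = 0.000491), Prrx1, a homeobox factor of mesenchyme, by 1.91 (SE 0.32, adjusted p = 0.000691), and Tcf4 by 1.02. Snai2, a relative of Snai1 that basal keratinocytes also make, went the other way: class 1 ran from 8.59 through 9.05 to 10.15, and class 2 stood at 11.23, 10.74, 10.93, 10.99 and 11.17. It was lower in class 1 by 1.75 (SE 0.26, adjusted p = 0.000283), as were Foxq1 (-3.47, SE 0.36, adjusted p = 1.08e-05) and Sox9 (-1.65). Twist1 was not past the threshold (0.59, adjusted p = 0.0697), and Zeb2 was just past it (0.77, SE 0.25, adjusted p = 0.041) and no longer so with no filter, with the Gapdh covariate or without the arrays against their sex label.

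Of 21 mesenchymal proteins, 6 were higher in class 1 and none lower (median 0.35), and with the Gapdh covariate 3 were higher. Vim, which encodes vimentin, ran from 13.29 through 13.61 to 13.74 against 11.95, 12.65, 11.64, 11.94 and 10.89, a non-overlapping difference of 1.77 (SE 0.21, adjusted p = 3.61e-05). Fn1, the matrix protein fibronectin, was higher by 1.43 (SE 0.16, adjusted p = 2.32e-05), and S100a4, a calcium-binding protein of motile cells, by 2.52 (SE 0.45, adjusted p = 0.00115), with class 2 tumor 2 (13.45) inside the class 1 range of 12.94 to 13.78 and the other class 2 tumors between 9.78 and 10.96. Cdh2, which encodes N-cadherin, was scattered within class 1 from 3.40 to 8.72 and low in class 2 (3.65 to 4.99), and did not pass (2.04, SE 0.85, adjusted p = 0.108). The fibroblast and myofibroblast genes Acta2 (0.72), Tagln (-0.11), Postn (-0.14) and Cdh11 (0.18) did not pass either.

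Of 20 collagen and matrix genes, 3 were higher in class 1 and 1 was lower, a share near the 20.9% of all genes tested that passed. The fibril-forming collagens Col1a1 (-0.75, adjusted p = 0.51) and Col3a1 (0.04, adjusted p = 0.95) did not pass. Mgp, a matrix inhibitor of calcification, was higher by 3.19 (SE 0.49, adjusted p = 0.000344). Fbln1 was lower by 1.57, while its other probe set gave 0.01. Of 18 matrix proteases and inhibitors 4 were higher, including the inhibitors Timp2 (1.24) and Timp3 (1.97), and none was lower. The Gapdh covariate left 1 of the collagen and matrix genes and 2 of the proteases and inhibitors higher. The largest higher genes over the whole array were Crabp1, a carrier of retinoic acid (3.48, SE 0.64, adjusted p = 0.00133), the matrix proteoglycan Ogn (3.38), Mgp and the scavenger receptor Scara3 (3.18).

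**Figure D3:**
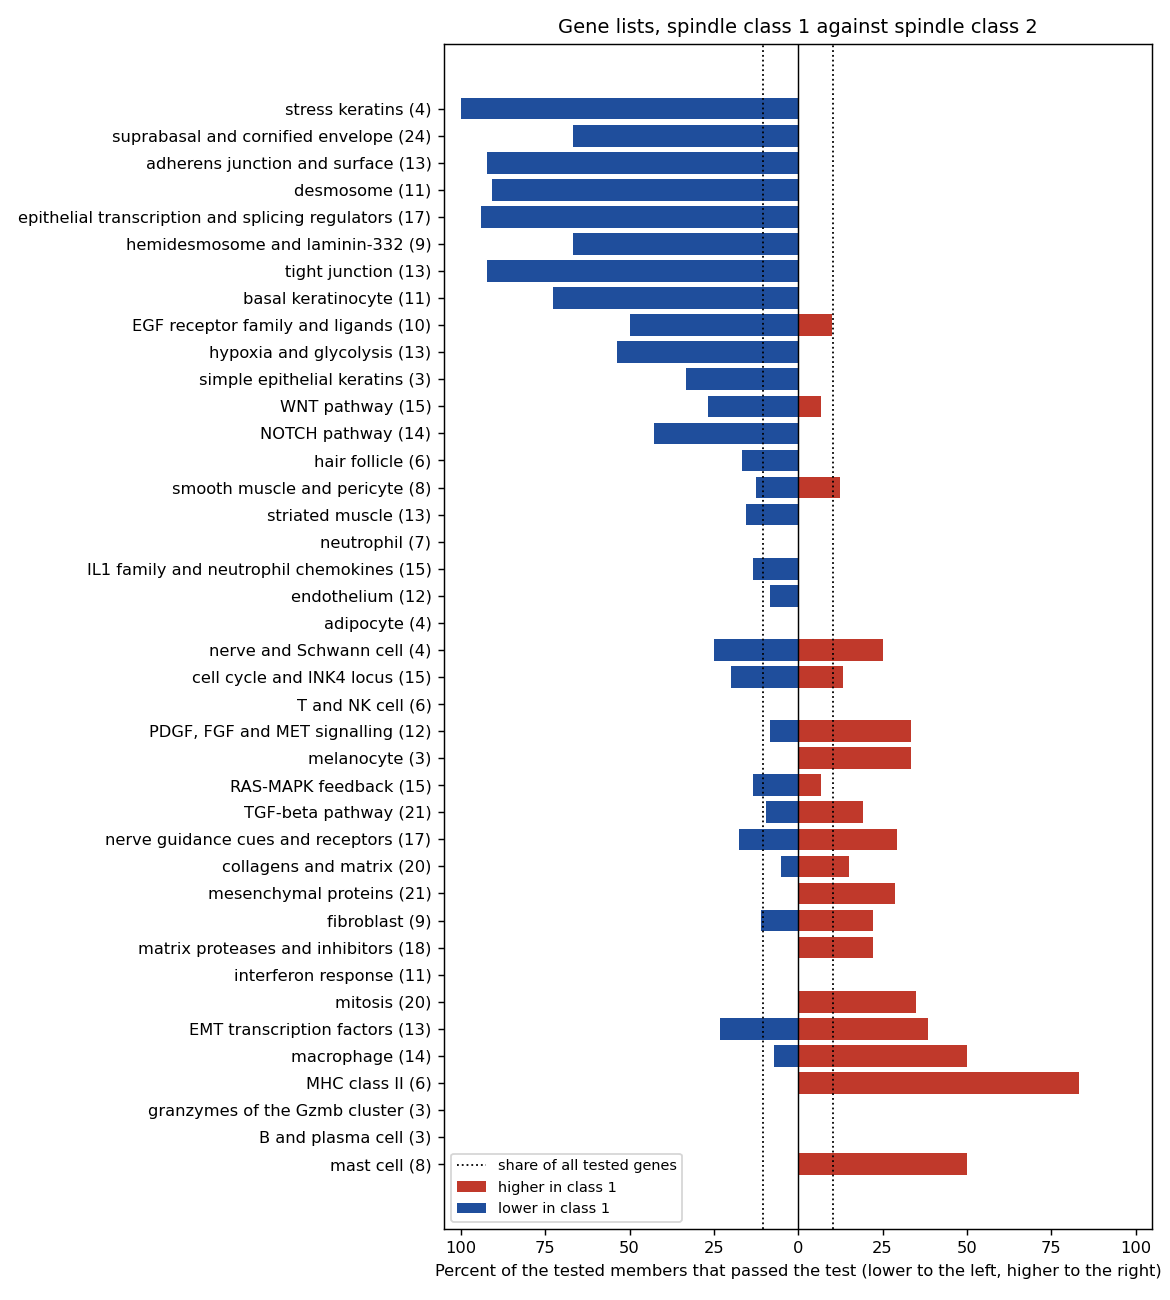
Percent of the tested members of each gene list (their number in brackets) that passed the limma test, lower in class 1 to the left and higher to the right, with dotted lines at the share over all genes tested (10.6% and 10.4%). Lists are in the order of their median difference, and those of epithelial structure lie at the top with bars to the left only.

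Growth factor signaling genes split between the classes. Of 10 EGF receptor family genes, 5 were lower in class 1 and 1 higher (median -1.33). Tgfa, a ligand of the EGF receptor, ran from 3.10 through 4.22 to 7.12 in class 1 against 9.35, 8.79, 8.73, 9.36 and 8.00 in class 2 (difference -4.23, SE 0.50, adjusted p = 3.74e-05). Erbb3, a co-receptor for neuregulins, was lower by 3.43 (SE 0.32, adjusted p = 5.02e-06), Erbb2 by 1.34 and the ligand Hbegf by 1.52. Egfr itself did not pass (-0.58, adjusted p = 0.28), and Errfi1, a feedback inhibitor of the receptor, was the one higher (1.69, SE 0.31, adjusted p = 0.00135). Among 12 tested PDGF, FGF and MET genes, 4 were higher and 1 lower: the receptor Pdgfra by 2.55 (SE 0.35, adjusted p = 0.000138), Fgf7, a fibroblast ligand for the epithelial receptor Fgfr2, by 2.76, Hgf, the ligand of Met, by 1.78 and Pdgfc by 1.22. The gene of this list that was lower was the receptor Fgfr3, by 1.22. Adding the Gapdh covariate left 2 of the 12 higher and 1 lower. Fgfr2, counted in the basal keratinocyte list, was lower by 2.07 (SE 0.26, adjusted p = 6.44e-05).

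In the NOTCH list 6 of 14 genes were lower in class 1 and none higher (median -0.62), namely the ligands Jag1 (-2.45, SE 0.39, adjusted p = 0.000419) and Jag2 (-1.46), the receptors Notch1 (-1.56) and Notch3 (-1.86), and the targets Hes1 (-1.29) and Nrarp (-2.17). Ligands of endothelium, such as Dll4 (0.00), did not pass. Of 15 WNT genes 4 were lower (7 without class 1 tumor 4), including the ligand Wnt4 (-2.76, SE 0.26, adjusted p = 6.05e-06) and the receptor Fzd6 (-2.32), and 1 was higher. With the Gapdh covariate 3 WNT genes were lower and none higher. Without the arrays against their sex label 4 were lower and none higher. In the TGF-beta list, 4 of 21 were higher and 2 lower, where 10.4% and 10.6% of all genes tested were. Leaving out class 2 tumor 3 or 5 left 1 or 2 higher. Under the Gapdh covariate 1 was higher, and without the shared mouse or without the arrays against their sex label 2 were. The receptors Tgfbr2 (1.24) and Tgfbr3 (1.55) were higher and Fst, which encodes the activin antagonist follistatin, was lower (-2.75, SE 0.32, adjusted p = 2.99e-05). The ligands Tgfb1 (-0.32), Tgfb2 (-0.24) and Tgfb3 (0.16) did not pass. RAS-MAPK feedback genes, a readout of RAS output in tumors of this kind, gave 1 higher and 2 lower of 15. This share was near the 20.9% of all genes tested that passed, and Spry2 did not pass (0.16, adjusted p = 0.751). Among 17 nerve guidance genes 5 were higher, such as the secreted cues Sema3a (2.75, SE 0.43, adjusted p = 0.000413) and Ntn1 (2.38, SE 0.44, adjusted p = 0.00142), and 3 lower. With the Gapdh covariate 3 were higher and 1 lower, and without the arrays against their sex label 2 were higher and 3 lower. In Sema3a class 2 tumor 2 (8.43) again lay within class 1 (8.37 to 9.77), apart from the other class 2 tumors (5.40 to 6.38).

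The INK4 locus differed sharply. Cdkn2a, which encodes the tumor suppressors p16INK4a and p19ARF, ran from 2.51 through 3.16 to 3.89 in class 1 and was 6.20, 8.00, 7.23, 6.96 and 10.02 in class 2. All 9 class 1 values lay under the array median and none of the class 2 values did, so the gene entered the test through class 2 alone. The difference was -4.34 (SE 0.46, adjusted p = 1.5e-05), 20.3-fold, and with no filter the adjusted p was 2.53e-05 over 18194 genes. Its neighbor Cdkn2b, which encodes p15INK4b, was 3.82 to 4.19 in 7 class 1 tumors, 6.33 in class 1 tumor 5 and 8.80 in class 1 tumor 7, against 8.31, 8.86, 8.86, 8.20 and 8.76 in class 2. Class 1 tumor 7 lay within class 2, and the difference was -3.82 (SE 0.70, adjusted p = 0.00142).

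Mtap, the gene on the other side of Cdkn2a in RefSeq gene order, which encodes a purine salvage enzyme, did not differ by class in the mean (0.01, SE 1.29, adjusted p = 0.998) but was uneven in class 1. Class 1 tumors 4, 5 and 8 stood at 5.44, 3.95 and 6.09, the other 6 between 10.46 and 12.26, and class 2 between 8.66 and 9.74. The class 1 values therefore lay on both sides of the class 2 range with none inside it. Tumors 4 and 8 are the class 1 arrays that went against their sex label. Mtap was looked at after its values were seen. DNA copy number and methylation were not analysed here. Of the other INK4 family members, Cdkn2c was higher in class 1 (1.73, SE 0.26, adjusted p = 0.000281), as was E2f1 (0.82), and Ccnd2 was lower (-1.94, adjusted p = 0.0214). In the whole list of 15 cell cycle and INK4 genes 2 were higher and 3 lower, where 10.4% and 10.6% of all genes tested were. Under the Gapdh covariate 1 of the 15 was higher and 2 were lower. Rb1 (-0.03), Cdk4 (-0.02) and Ccnd1 (-0.32) did not pass.

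**Figure D4:**
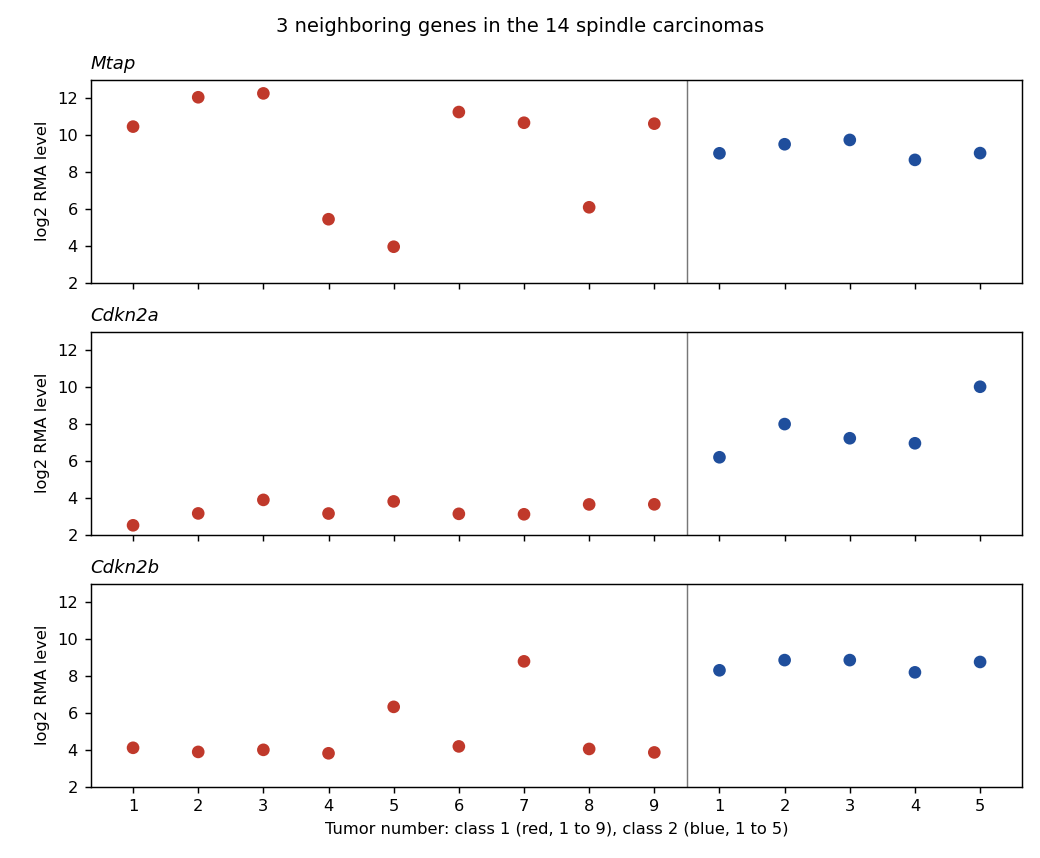
Log2 expression of Cdkn2a and its neighbors Cdkn2b and Mtap in each spindle tumor, 1 point per tumor. Cdkn2a is at 2.51 to 3.89 in class 1 and 6.20 to 10.02 in class 2, Cdkn2b overlaps through class 1 tumor 7, and Mtap is lowest in class 1 tumors 4, 5 and 8.

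Proliferation and metabolism showed smaller differences. Of 20 mitosis genes 7 were higher in class 1 and none lower (median 0.64), among them the cyclin Ccnb2 (1.34, SE 0.28, adjusted p = 0.00349) and the kinase Aurkb (1.10), while Mki67 (0.27, adjusted p = 0.51) and Top2a (0.65) did not pass. With the Gapdh covariate limma called none of the 20 (1 at an unadjusted p under 0.05), and 1 was called without the shared mouse, as without the arrays against their sex label. Leaving out class 2 tumors 1, 2, 3 and 5 in turn gave 3, 11, 4 and 2. Of 13 hypoxia and glycolysis genes 7 were lower in class 1 (median -0.83), including the glucose transporter Slc2a1 (-0.83, adjusted p = 0.002) and the hexokinase Hk2 (-1.07, SE 0.24, adjusted p = 0.00499). With the Gapdh covariate 4 of the 13 were lower.

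Markers of other cells that a skin carcinoma can hold were read from the same fit. Of 14 macrophage genes 7 were higher in class 1 and 1 lower (median 1.01). The complement genes C1qa (1.60), C1qb (1.93, SE 0.38, adjusted p = 0.00242) and C1qc (1.54), Cd68 (1.69) and Csf1r (1.06) were higher, and the level of the whole list, as a mean of log2 values, was 9.32 to 10.71 in class 1 and 8.57 to 9.92 in class 2. Arg1, an arginine-degrading enzyme that both macrophages and keratinocytes can make, was lower by 3.49 (SE 0.55, adjusted p = 0.000388). The pan-macrophage marker Adgre1 did not pass (1.13, adjusted p = 0.0632). Of 6 MHC class II genes 5 were higher (median 1.02), and of 8 mast cell genes 4 were higher (median 1.20), with proteases of close paralogs among them. With the Gapdh covariate the counts higher by limma were 0, 1 and 0 (1 mast cell gene at an unadjusted p under 0.05), without the shared mouse 3, 1 and 0, and without the arrays against their sex label 3, 2 and 0 (4 and 5 mast cell genes at an unadjusted p under 0.05 in the last pair of fits). Leaving out single tumors also moved them: the macrophage count fell to 4 without class 1 tumor 1, 4 or 9 or class 2 tumor 3 or 5, the MHC class II count was 2 to 3 without class 1 tumor 1, 2, 4 or 7 or class 2 tumor 1 or 5, and the mast cell count ranged from 0 to 5, at 0 without class 1 tumor 1, 2 or 7 or class 2 tumor 3 or 5.

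By limma no T and NK cell gene of 6 tested, no neutrophil gene of 7, no B and plasma cell gene of 3 and no interferon gene of 11 passed, with 0, 0, 0 and 1 at an unadjusted p under 0.05. The SAM-type statistic, the kind of test the study's methods name, called 0, 1, 0 and 1. With the p53 label as a covariate in limma, 2 neutrophil genes were lower in class 1 and 1 interferon gene was higher. Many T, NK, B and plasma cell genes fell under the filter. With no filter, none of 13 T and NK cell genes and none of 6 B and plasma cell genes passed. Interferon-induced RNA was high in class 1 tumors 4 and 1 (list means 9.37 and 7.91, against 4.86 to 6.26 in the other 12), tumor 4 being an array against its sex label. Gzme, a granzyme, did not pass (-0.22, SE 0.83, adjusted p = 0.885), and neither did the cytokine Il18 (0.75, SE 0.36, adjusted p = 0.16). The SE of Gzme is too large to exclude a difference in either direction. Among SCC, in the limma model described below, Il18 was higher in class 1 (1.12, SE 0.36, adjusted p = 0.0135). Gzme did not pass there (-1.535, SE 0.90, adjusted p = 0.2). The interaction passed for neither Il18 (-0.39, SE 0.54, adjusted p = 0.781) nor Gzme (1.43, SE 1.35, adjusted p = 0.66). Striated muscle, which underlies dorsal skin, gave 2 of 13 genes lower in class 1, where 10.6% of all genes tested were lower. Its list mean was uneven in class 2, from 4.64 in tumor 2 to 9.31 in tumor 1, against 6.58 to 7.40 in class 1. Without class 2 tumor 2, 7 of the muscle genes were lower in class 1, and without tumor 1 or 4 none was. Of 9 fibroblast genes, Pdgfra and Cd34 (1.04, adjusted p = 0.0395) were higher and Dpep1 was lower (-0.997, adjusted p = 0.0485). The other 6, Pdpn (-0.54) and Dpt (0.46) among them, did not pass, where 20.9% of all genes tested passed. Once the Gapdh covariate was added, 1 was higher and none lower. Endothelium gave 1 of 12 (Vwf, -0.74), melanocytes 1 of 3 (Mitf, 1.52) with Pmel at -0.01, and adipocytes none of 4 (1 at an unadjusted p under 0.05 in limma, 1 by the SAM-type statistic). Keratinocyte markers were present in every class 2 tumor, and in class 1 Trp63 lay under the array median in 3 of 9.

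The mouse that gave a tumor of each class allowed a look at the comparison within one animal, with no test. Fitted without that mouse, 1862 of 11965 genes (15.6%) passed. The difference between its tumors had the same sign in 1667 of these (89.5%), compared with 66.9% of all genes tested. Of 985 genes called lower in class 1, 922 were lower in class 1 tumor 4 than in class 2 tumor 5, and of 877 called higher, 745 were higher. The differences within the mouse were -3.57 for Cdh1 (-3.11, SE 0.43, in the fit without it), -5.79 for Epcam (-4.76, SE 0.63), 2.60 for Zeb1 (1.81, SE 0.23) and 2.73 for Vim (1.54, SE 0.17). The pair had the lowest correlation among all pairs of spindle tumors (r = 0.781). Both arrays went against the sex label of that mouse, so whether they share a host cannot be told from the expression data.

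To see whether class carried a different meaning in spindle tumors, it was compared with the class difference in SCC, in a model of 52 tumors from 48 mice with mouse as a random block. The SCC classes differed in 4013 of 13008 genes (30.9%). Of genes tested in both fits, 1709 were called in the same direction, which was 67.4% of the 2536 spindle calls and 44.4% of the 3848 SCC calls, where 31.7% of these 12120 genes were SCC calls, and 6 were called in opposite directions. Group means in the order spindle class 1, spindle class 2, SCC class 1 and SCC class 2 were 6.53, 11.47, 6.20 and 11.0 for Epcam. They were 9.61, 7.61, 9.48 and 7.31 for Zeb1. Cdkn2a was under the array median in 9 of 9, 0 of 5, 5 of 5 and 2 of 33 tumors. For these genes the class difference in spindle tumors was not larger or smaller than in SCC past the test: the interaction was -0.03 (SE 0.71, adjusted p = 0.992) for Epcam, -0.11 (SE 0.40, adjusted p = 0.928) for Zeb1 and -1.34 (SE 0.86, adjusted p = 0.484) for Cdkn2a.

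Across the genome the interaction passed in 24 genes (0.185%), 7 with a larger and 17 with a smaller signed difference in spindle tumors, where 1884 had an unadjusted p under 0.05. None of 483 listed genes was among them by limma, 56 having an unadjusted p under 0.05. The smallest adjusted p belonged to Gon4l, a chromatin-associated regulator of transcription (-1.27, SE 0.20, adjusted p = 0.000554), with class 1 minus class 2 running opposite ways: means were 6.93 and 7.50 in spindle tumors and 7.60 and 6.92 in SCC. Carhsp1, an RNA-binding protein, was the next (1.55, SE 0.28, adjusted p = 0.00641), with means of 8.58 and 7.57 in spindle tumors and 7.94 and 8.48 in SCC. The count rested on single tumors: leaving out class 2 spindle tumor 5 left 2 genes, and leaving out tumor 4 gave 223. Without SCC class 1 tumor 3 or 4, whose arrays correlated at r = 0.9905 although the labels name different mice, it was 5 or 3.

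Histology within a class was compared in the same model. Spindle and SCC tumors of class 2 differed in 13 genes (0.0999%), 11 of them higher in spindle tumors, with 1765 at an unadjusted p under 0.05. Dennd6b, a regulator of RAB GTPases, was higher by 0.61 (SE 0.10, adjusted p = 0.00305), Smad5, a mediator of BMP signaling, by 0.75 (SE 0.14, adjusted p = 0.0143), and Nkd2, an inhibitor of WNT signaling, by 2.43 (SE 0.54, adjusted p = 0.0377). Leaving out class 2 spindle tumor 5 gave 0 genes (as did taking the mean of each gene's probe sets), tumor 2 gave 1, tumor 3 gave 3, tumor 1 gave 72 and tumor 4 gave 223. Spindle and SCC tumors of class 1 differed in 8 genes (0.0615%), 2 of them higher in spindle tumors, with 1377 at an unadjusted p under 0.05. Plekhh2, a cytoskeletal protein, was higher by 1.39 (SE 0.23, adjusted p = 0.00244), and Chst1, a sulfotransferase, lower by 1.39 (SE 0.27, adjusted p = 0.0365). Leaving out SCC class 1 tumors 1 to 5 in turn gave 19, 4, 1, 0 and 3. No listed epithelial, mesenchymal or cell cycle gene passed in either comparison, with 47 and 55 of 483 listed genes at an unadjusted p under 0.05 by limma. Krt8 was higher by 1.95 in class 2 spindle tumors than in class 2 SCC (SE 0.81, adjusted p = 0.276), where SCC ranged from 5.42 to 12.39.

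**Figure D5:**
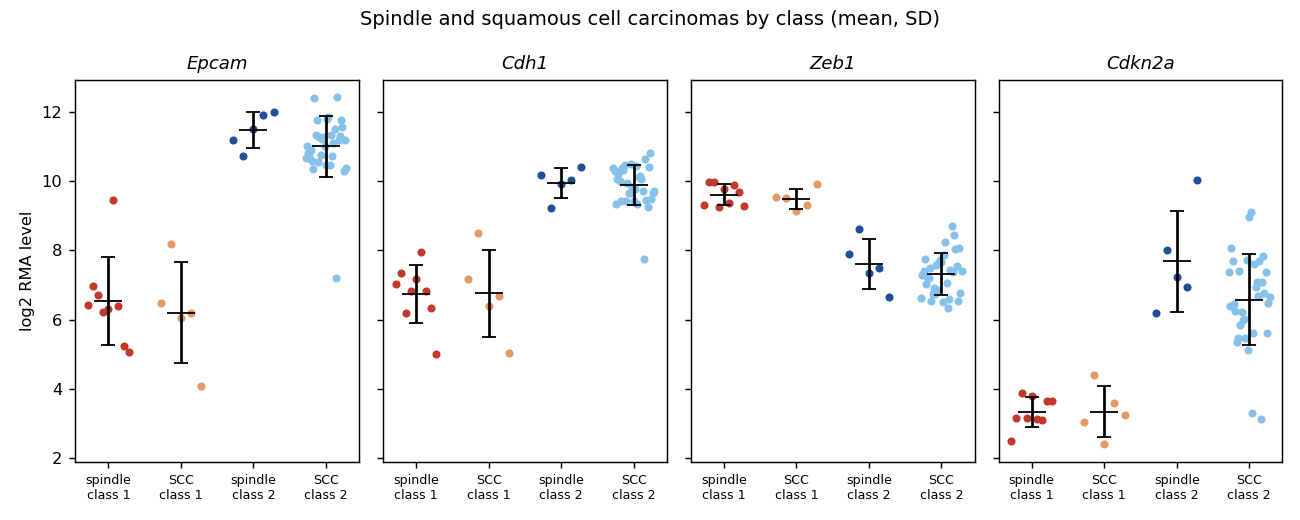
Log2 expression of selected genes in spindle and SCC tumors of each class (9, 5, 5 and 33 tumors), 1 point per tumor with the group mean and SD on a log2 axis. Group means of Epcam, Cdh1 and Cdkn2a are lower in class 1 than in class 2 in both histologies and those of Zeb1 higher, but SCC class 2 tumor 25 lies within class 1 for Epcam (7.20) and Cdh1 (7.75), and SCC class 2 tumors 19 and 26 do for Cdkn2a (3.32 and 3.14).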

How the data were processed

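Total RNA of each tumor was hybridized to 1 Affymetrix mouse 3′ expression array. The authors deposited log2 values per probe set, which the submitters' processing notes credit to RMA (background correction, quantile normalization of all arrays and probe summary), so a value is read against the rest of its array and a shift shared by most genes would be removed. The RMA version and genome build are not given in the sources used here. Array medians were 4.43 to 4.56. The number of arrays limits the precision. Of 45101 probe sets, 34958 had 1 gene symbol, 932 several and 9211 none, and 34755 were updated through RefSeq (GRCm38.p6), used for names, gene order and promoters. The probe set of highest mean over all arrays stood for each of 18194 genes.

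Genes above the array median on at least 5 of the 14 spindle arrays were tested with limma 3.58.1 (lmFit, eBayes) in R 4.3.3, 9 class 1 against 5 class 2 tumors, and called at p under 0.05 after Benjamini-Hochberg adjustment. A model of 4 groups (52 tumors, mouse as a random block) gave the interaction and the comparisons of spindle tumors with SCC, over genes above the median on at least 5 arrays. Exact permutation and Fisher tests used scipy 1.17.1 with pandas 2.3.3, and figures matplotlib 3.10.9, in Python 3.11.15. Procedures were tested on simulated data. Where nothing says that samples came from separate animals, p-values measure only the spread between these samples.

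Named genes are the 12 largest differences each way, up to 4 called members of each of 40 lists, the genes fixed by name, and for other comparisons the 8 largest each way. Lists held 534 genes, 500 of them on the array. Members, lists and tests were chosen with earlier results of these data known. Other list members and markers named in the text were chosen after their values were seen.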

Additional observations from a re-analysis of the deposited data

Results flagged for a closer look

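In 21 of 296 groups of 5 or 9 tumors looked at, over the named genes, the highest or lowest tumor stood apart from the rest by Dixon's criterion, which chance meets in about 1 of 20 groups. Class 1 tumor 6 was the highest of its class, apart from the other 8, in 10 genes that were lower in class 1. These were the surface proteins Epcam (9.45) and Cdcp1 (8.15), the junction genes Cldn4 (7.55), Lsr (7.21) and Dsc2 (7.48), the laminin chain Lamb3 (9.98), the transcription factor Ehf (5.36), the envelope precursor Sprr2d (9.61), and Gsta4 (9.90) and Cwh43 (5.68). Class 1 tumor 5 was lowest for Cdh11 (3.69), Col1a1 (7.65) and Col3a1 (11.45) and highest for Scara3 (11.53). Class 1 tumor 7 was highest for Cdkn2b (8.80) and class 1 tumor 4 lowest for Id1 (6.11), a target of BMP signaling. In class 2, tumor 1 was highest for Cdh2 (4.99), tumor 2 lowest for Jag1 (10.18), Krt6a (12.79) and Krt6b (12.32), and tumor 5 lowest for Crabp1 (5.90).

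The difference between classes was not the same in spindle tumors as in SCC for 15 named genes past the interaction test. It was more negative in spindle tumors for Penk, which encodes an opioid peptide precursor (-3.48), 2310067E19Rik (-1.94), the kinase subunit gene Phka1 (-1.70), the sulfotransferase gene Chst1 (-1.53), the bicarbonate transporter gene Slc4a4 (-1.53), Stxbp5 (-1.40), Zfp579 (-1.36) and Gon4l (-1.27). It was more positive for Carhsp1 (1.55), Smg6, a factor of nonsense-mediated decay (1.35), the phosphatase gene Dusp2 (1.09), the deubiquitinase gene Usp3 (1.04), Inip (0.96), Nubp1 (0.91) and Ufd1 (0.88). For Penk the means in spindle class 1, spindle class 2, SCC class 1 and SCC class 2 were 5.93, 6.23, 8.48 and 5.54, so SCC class 1 stood apart, with an SD of 2.28. SCC class 1 tumors 3 and 4 had nearly the same array values (Pearson r = 0.9905 across all 18194 genes, with no filter). Without tumor 3 or 4 the genes past the interaction test went from 24 to 5 and 3.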

How the results depend on the processing

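The count of genes differing between spindle classes stayed within 1.5 times of 2536 except in 3 fits. These were every probe set tested (4132), without the arrays against their sex label (1569) and with the Gapdh covariate (1125). The first of these counts probe sets, 4132 of 20931, where the main fit had 2536 of 12120 genes. Leaving out 1 tumor gave 2003 to 2596. The interaction count of 24 became 11 with no filter, 10 with no mouse block, 9 with the mean of probe sets, 14 with a common 75th percentile and 6 without arrays against their sex label, and 2 to 223 when 1 tumor was left out (223 without class 2 spindle tumor 4, 6 without tumor 2 and 2 without tumor 5, and 13, 5 and 3 without SCC class 1 tumors 2, 3 and 4). Class 2 spindle tumors against class 2 SCC gave 0 with the mean of probe sets and without arrays against their sex label (1536 and 1009 at an unadjusted p under 0.05 by limma), and 0 to 223 against 13 when 1 tumor was left out (72, 1, 3, 223 and 0 without class 2 spindle tumors 1 to 5, the last with 820 at an unadjusted p under 0.05). For class 1 the count of 8 became 1 with no filter, 2 with a common 75th percentile and 4 without arrays against their sex label, and 0 to 19 when 1 tumor was left out (19, 4, 1, 0 and 3 without SCC class 1 tumors 1 to 5, where the 0 had 1114 at an unadjusted p under 0.05, and 2 without class 2 spindle tumor 3). The SCC class comparison gave 3134 to 4097 against 4013 when 1 tumor was left out, and 4246 with no mouse block.

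Of 141 named genes tested, 47 lost their call with the Gapdh covariate, 23 without arrays against their sex label and 21 without the shared mouse, and 26 lost it on leaving out at least 1 tumor. Cdkn2a was not tested where 4 class 2 tumors remained, since it no longer met the filter. Of the named genes, 3 that had not passed changed sign. Krt8 was 0.20 without the shared mouse and 0.16 without arrays against their sex label, and -0.88 to 0.090 leaving out 1 tumor. Gzme was 0.038 with p53 as a covariate and -0.50 to 0.14 leaving out 1 tumor, and Krt18 was 0.088 with p53 as a covariate. The cause of these changes was not tested. The Gapdh covariate, the SCC class comparison and the mouse block's correlation (0.2223, taken from the model of 52 tumors because the 14 spindle tumors gave no estimate) were chosen after seeing the data. No paired analysis was possible because the numbers of the tumors follow their order of listing only, and among mice with spindle tumors 1 alone gave a spindle tumor of each class. Array signal limits values near the lower end: 175 genes called lower in class 1 had at least 5 class 1 arrays under the array median, and their folds may understate the difference.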

Other observations

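Of the 8 tumors whose histology is not given, which entered no comparison, 6 are labeled class 2 and 2 class 1. In the 6 of class 2, Epcam was 10.95, 11.3, 11.09, 11.89, 10.59 and 11.55, and Zeb1 was 6.67, 7.49, 7.79, 7.73, 7.16 and 6.16. In the 2 of class 1, Epcam was 5.56 and 6.80 and Zeb1 was 9.00 and 8.82. Cdkn2a in these class 1 tumors was 4.11 and 8.64, the second inside the range of 6.20 to 10.02 seen in class 2 spindle tumors, and that tumor carries the p53 mutant label. In the class 2 tumors Cdkn2a was 6.62, 3.61, 4.43, 4.98, 5.72 and 6.14.

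Some granzyme and interferon-induced genes were high in single class 1 tumors. Gzmd, which encodes a granule protease and fell under the filter, so was not tested, was 8.19, 7.36 and 6.80 in class 1 tumors 4, 8 and 1 and between 2.44 and 4.31 in the other 6, and 2.83 to 4.66 in class 2. Tumors 4 and 8 are arrays that went against their sex label. Gzmd and Gzme are close paralogs whose probe sets may share signal. Class 1 tumors 4 and 1 were also the 2 highest for the interferon gene Ifit3 (10.19 and 7.40, with 4.13 to 5.85 in the other 7), a gene that did not differ between classes past the test (adjusted p = 0.388). The T cell gene Cd3e ran from 5.31 to 6.11 in class 1 and from 5.64 to 6.01 in class 2 (adjusted p = 0.706).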
